A study of Mus musculus with 201 samples.

Results

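The genes described here encode the proteins of the cytosolic ribosome. They were found by symbol: 82 symbols in the tables had the form Rpl or Rps followed by a number, p and a number, or a, with at most 1 paralogue suffix, and Rps4l was left out because the annotation gives it as a transcribed processed pseudogene. The 81 members, 50 of the large subunit (Rpl) and 31 of the small subunit (Rps), were read among the 42609 symbols that all deposited tables share. Each library was made from 1 mouse dentate granule cell, the principal neuron of the dentate gyrus, or from 1 nucleus of such a cell.

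Whole cells came from Prox1-GFP mice, in which the promoter of Prox1, a transcription factor of granule cells, drives a green fluorescent protein, and were dissociated with protease, sorted as GFP+ and amplified by Smart-seq2 with 10 µM TSO, the template-switching oligonucleotide, and ERCC spike-in RNA at 1:2000. The mice had received saline or 50 mg per kg of PTZ, a seizure-inducing GABA(A) receptor antagonist, 1 h before collection, and 2 mice were pooled per treatment. Nuclei after exposure to a new environment (NE) came from C57BL/6 mice of 8 weeks that had spent 15 min in a new cage and 1 h back in the home cage. They were freed with a Dounce homogenizer, sorted as Prox1+/Fos+ or Prox1+/Fos- by antibody staining (called FOS+ and FOS- here), and amplified by Smart-seq2 with 1 or 10 µM TSO and ERCC at 1:200 or 1:2000, which gives 4 amplification conditions. Home-cage (HC) nuclei came from C57BL/6 mice that had stayed in the home cage, were labelled NeuN+/Prox1+, with staining scored after capture per the methods, and were amplified on a C1 microfluidic chip. Kept for analysis were 38 saline cells, 30 PTZ cells, 41 FOS- nuclei, 40 FOS+ nuclei and 23 HC nuclei. The labels name no animal, so the libraries of a group count as 1 sample: spreads over libraries are given as SD, no test is made, and a difference of 1 or more on the log2 scale, which is 2-fold on log2(TPM + 1), is called past the fold. TPM, a transcript abundance, is scaled for gene length and sums to the same total in each library.

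A ribosome is built in the nucleolus from ribosomal RNA and one copy of nearly every ribosomal protein, so the genes of both subunits are expressed together at high levels in most cells. Their mRNAs are short, stable and cytoplasmic, and most start with a run of pyrimidines, the 5′ terminal oligopyrimidine (TOP) tract, through which mTOR signalling sets their translation. In neurons ribosomes lie in the cell body and in dendrites near synapses, where they make protein after activity. Many members also have intronless copies elsewhere in the genome, most of them annotated as processed pseudogenes, which makes short reads of these genes hard to place.

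Sequences of the near-identical copies on which results below turn are shown first, as coding bases counted from 1 at the A of the start codon, with the bases that differ in capitals. Rpl30 (GRCm38 chr15:34440505-34443640, minus strand) and the processed pseudogene Gm12191 (chr11:49678710-49679057, minus strand) differed at 1 of 348 coding bases, G96A, member first. Rpl26 (chr11:68901583-68906989, plus strand) and the processed pseudogene Gm15772 (chr5:3236431-3236868, plus strand) differed at 2 of 438 coding bases, C177T and T288C. The stretches below run from base 1 to 120 for the first pair and from base 169 to 288 for the second.
Rpl30: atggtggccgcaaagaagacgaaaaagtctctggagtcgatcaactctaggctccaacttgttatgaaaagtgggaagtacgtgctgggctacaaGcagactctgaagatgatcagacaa
Gm12191: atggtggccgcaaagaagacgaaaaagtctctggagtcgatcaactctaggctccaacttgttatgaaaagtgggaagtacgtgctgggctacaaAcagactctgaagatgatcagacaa
Rpl26: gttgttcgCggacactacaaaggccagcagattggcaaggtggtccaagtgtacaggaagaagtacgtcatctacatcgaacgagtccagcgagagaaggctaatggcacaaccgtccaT
Gm15772: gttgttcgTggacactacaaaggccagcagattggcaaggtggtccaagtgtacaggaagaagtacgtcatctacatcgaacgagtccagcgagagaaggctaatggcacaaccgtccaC

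Rps27 (chr3:90212522-90213651, minus strand) and Rps27rt (chr9:114982366-114982739, minus strand), which is annotated as protein-coding and lies outside the name rule, had identical coding sequences over all 255 bases. Coding bases 1 to 120 of both genes therefore read the same.
Rps27 and Rps27rt: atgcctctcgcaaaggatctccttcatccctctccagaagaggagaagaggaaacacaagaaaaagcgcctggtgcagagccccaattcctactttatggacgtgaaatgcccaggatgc
Of the 50-base sequences in the members' transcripts, a median of 23.5% also occurred in a transcript of another gene, with 0% in Rpl3l and Rpl39l and 84.1% in Rpl35. Of 100-base sequences the median was 15.2%. Copies were taken as other protein-coding genes or processed pseudogenes with at least 50% of their 50-base sequences in a member. There were 192, of which 173 were annotated as processed pseudogenes and 167 were in the tables, and 65 members had at least 1. NE nuclei were read in single reads of 50 bases, and whole cells and HC nuclei in paired reads of 100 bases.

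The start of the TOP tract was looked for as CTTT beginning within 5 bases of the annotated first base, on the transcribed strand, in RefSeq promoters of GRCm38.p6. Of 61 members with a promoter in the table, 13 (21.3%) held it, against 5.07% of 27025 promoters of all genes. The complement read on the other strand, AAAG, stood there in 1 member (1.64%) and in 4.64% of all promoters. Shown are the 4 matching members with the highest mean TPM in saline cells, from 20 bases before to 10 bases after the annotated start, with CTTT in capitals. A missing match says only that these letters are not in this window.
Rps6, chr4:86857358-86857387, minus strand: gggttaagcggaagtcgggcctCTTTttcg
Rpl7a, chr2:26910787-26910816, plus strand: ccacaattccctcttCTTTCTTTctccagc
Rplp2, chr7:141447631-141447660, plus strand: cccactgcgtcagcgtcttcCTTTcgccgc
Rps10, chr17:27635235-27635264, minus strand: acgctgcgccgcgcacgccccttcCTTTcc

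Total expected counts per library ran from 401331 to 2696043 in saline cells, from 67212 to 5129240 in PTZ cells, from 63775 to 1060516 in FOS- nuclei, from 80096 to 1035170 in FOS+ nuclei and from 107647 to 278779 in HC nuclei. All 6 granule cell markers were detected in every group. Their summed TPM had medians of 2045 in saline cells, 1798 in PTZ cells, 6463 in FOS- nuclei, 4302 in FOS+ nuclei and 747 in HC nuclei. Single libraries carried markers of other cells: the highest summed astrocyte level was 3830 TPM in a PTZ cell against 87.4 in saline cells, with 2762 in an HC nucleus, and the highest summed microglia level was 4304 TPM in a FOS+ nucleus against 51.8 in FOS- nuclei. The microglia markers C1qa and C1qb were at 0 in both whole-cell groups and in FOS- nuclei. Of the oligodendrocyte markers 4 or 5 of 5 were detected in each group, with medians of the summed level from 4.29 TPM in HC nuclei to 45.8 TPM in PTZ cells. Of the endothelial markers 1 of 4 was detected in every group other than FOS+ nuclei, where it was 3, with summed levels of at most 110 TPM. Of the interneuron markers 1 of 3 was detected in each whole-cell group and 2 or 3 in the nucleus groups. Their summed level had medians of 156 TPM in saline cells, 123 TPM in PTZ cells and 0.21 to 9.13 TPM in nuclei. The highest sums were 795 TPM in saline cells, 597 TPM in PTZ cells and 1313 to 3231 TPM in the nucleus groups. The part of markers of other cells in the results below was not tested.

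Ribosomal protein genes took about 3 times as large a share of the RNA in whole cells as in nuclei. Their share of TPM was 3.74% ± 1.22 in saline cells (SD, n = 38 libraries; lowest 1.95%, median 3.52%, highest 8.20%) and 4.08% ± 1.88 in PTZ cells (n = 30; 0.822%, 3.74%, 9.52%). It was 1.24% ± 0.602 in FOS- nuclei (n = 41; 0.440%, 1.03%, 2.90%), 1.21% ± 0.499 in FOS+ nuclei (n = 40; 0.559%, 1.08%, 2.52%) and 0.950% ± 0.548 in HC nuclei (n = 23; 0.332%, 0.835%, 2.33%). The cell and nucleus groups overlapped at their edges, whereas the shares of saline and PTZ cells, and those of FOS+ and FOS- nuclei, differed by less than 1 SD. Both subunits followed the same order, with 2.30% of TPM for the large and 1.44% for the small subunit in saline cells and 0.739% and 0.497% in FOS- nuclei.

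As a share of expected counts, which are not scaled for the short length of these genes, the members held 1.46% ± 0.512 in saline cells and 0.494% ± 0.216 in FOS- nuclei. Summed over libraries, 591380 of 41542569 counts in saline cells were theirs, or 1.42% (exact binomial 95% interval 1.42% to 1.43%), against 77935 of 13962299 in FOS- nuclei, or 0.558% (0.554% to 0.562%). These intervals cover counting error only and leave out the spread between libraries, given above as SD, and between mice. They treat each read as independent, although PCR duplicates could not be told from separate molecules.

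The number of members seen in a library separated cells from nuclei more clearly. With detection at a TPM above 1, saline cells held 74.7 ± 3.79 of the 81 members (60 to 78) and PTZ cells 71.4 ± 9.43 (43 to 78). FOS- nuclei held 32.8 ± 12.9 (16 to 66), FOS+ nuclei 34.4 ± 12.9 (15 to 69) and HC nuclei 15.7 ± 4.23 (10 to 25). No HC nucleus reached the lowest whole cell, whereas some NE nuclei overlapped the lowest cells. With every library thinned to 50000 counts, saline cells held 70.5 ± 5.12 members, FOS- nuclei 27.1 ± 10.9, FOS+ nuclei 28.3 ± 11.3 and HC nuclei 12.9 ± 4.12.

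**Figure D1:**
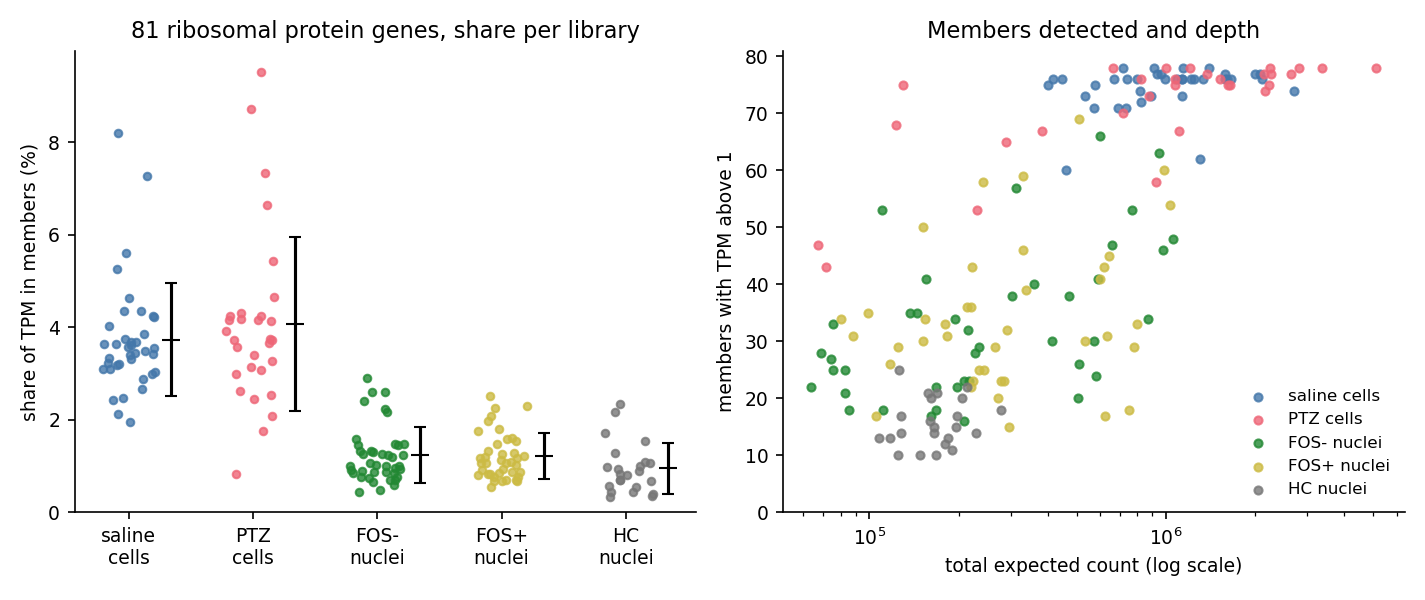
Left, the share of TPM in the 81 members (%), 1 point per library in each of the 5 groups, with the mean and SD as a bar beside the points; right, the number of members with TPM above 1 against the total expected count of the library (log axis). Whole cells averaged 3.74% and 4.08% and nuclei 0.950% to 1.24%, and saline cells held 60 to 78 members against 16 to 66 in FOS- nuclei.

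Of the 81 members, 42 were detected in every saline cell and 70 in at least 90% of them, whereas none was detected in every FOS- nucleus. In FOS- nuclei 23 members were detected in more than 50% of libraries, in FOS+ nuclei 22, and in HC nuclei 3, which were Rpl41, Rps18 and Rps3. The levels of the members, as mean log2(TPM + 1), had a median of 8.58 in saline cells, 8.26 in PTZ cells, 2.78 in FOS- nuclei, 2.80 in FOS+ nuclei and 1.39 in HC nuclei.

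Compared with FOS- nuclei, saline cells had higher levels of nearly the whole family. Of the 78 members that passed the filter (a count in at least 5 libraries of both groups together), 77 were higher in saline cells past the fold and none was lower, against 28.7% of 16700 genes that were higher, 21.2% that were lower and 50% in either direction. The median difference of mean log2(TPM + 1) was 5.15 over the members and 0.02 over all genes, and for 72 of the 78 it was larger than the pooled SD over libraries. Cells and nuclei also differed in preparation, strain, treatment and read length, and their tables were made separately, so these cannot be told apart from the compartment. Much of the difference lay in how often a member was seen: as the log2 ratio of mean TPM, which weighs the few nuclei with high values more, the median was 1.60 over the members and -0.54 over all genes, and 61 members were higher and 2 lower (80.8%, against 62.8% of all genes past the fold). On summed CPM, 51 members (65.4%) were past the fold, 49 higher and 2 lower, with a median of 1.33. Of all genes 62.5% were past the fold in either direction, with a median of -0.56.

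The most abundant members of saline cells were Rplp1, with a mean of 1267 TPM, Rpl9 with 1211, Rpl3 with 1141, Rpl41 with 1126 and Rpl4 with 1017. In FOS- nuclei they were Rpl10a with 535 TPM, Rpl41 with 522, Rpl9 with 519, Rps2 with 446 and Rps29 with 405. Rpl41, the shortest protein of the ribosome, and Rpl9 of the large subunit thus stood in both lists.

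The largest difference was that of Rpl3. Rpl3, which lies close to the peptidyl transferase centre, ranged from 237 TPM (lowest) through 1154 (median) to 2312 (highest) in saline cells and from 0 through 0 to 1529 in FOS- nuclei, where it was detected in 17 of 41. Its difference was 7.24, with means of 10.02 ± 0.71 and 2.78 ± 3.90 (SD). Every saline cell expressed Rpl3 and most FOS- nuclei had none detected, although the highest nuclei reached the level of cells. Rpl4, which lines the exit tunnel, differed by 7.04, with 38 of 38 cells and 16 of 41 nuclei detected.

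The stalk, which recruits elongation factors to the ribosome, was unequal in nuclei. Rplp0, its base, had a median of 367 TPM in saline cells (lowest 81.5, highest 3162) and was detected in 7 of 41 FOS- nuclei (17.1%, exact Clopper-Pearson 95% interval 7.15% to 32.1%), a difference of 7.19. Rplp1 and Rplp2, the acidic proteins that pair on it, were detected in 25 and 17 of 41 FOS- nuclei, with medians of 78.6 and 0 TPM. In saline cells all 3 genes were detected in all 38 libraries.

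Small-subunit proteins showed the same pattern. Rps26 differed by 7.14, Rps4x, an X-linked gene, by 7.08, Rpsa, also known as the laminin receptor precursor, by 6.95, and Rps6, the substrate of S6 kinase downstream of mTOR, by 6.94. Rps6 had a median of 603 TPM in saline cells (2.68 to 1407) and was detected in 12 of 41 FOS- nuclei. Rps27a, which is made as a fusion with ubiquitin, was detected in 18 of 41, with a mean TPM of 158 against 699 in cells. Rps3, found at the mRNA entry of the small subunit, was different: it was detected in 26 of 41 FOS- nuclei, more than most members, but at a median of 20.2 TPM where detected, against 408 in saline cells.

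A few members were common in nuclei. Rpl7 was detected in 38 of 41 FOS- and 40 of 40 FOS+ nuclei, with medians of 150 and 146 TPM, against 598 TPM in saline cells, and in 2 of 23 HC nuclei. Rpl10a was detected in 34 of 41 FOS- nuclei at a median of 281 TPM, close to the 258 of saline cells, and differed by 1.51. On the ratio of mean TPM its sign turned, to -0.89, since its mean in FOS- nuclei (535 TPM) was above that in saline cells (289 TPM). Rps2, at the mRNA entry channel, was detected in 29 of 41 FOS- nuclei, with a mean of 446 TPM against 652 in saline cells.

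**Figure D2:**
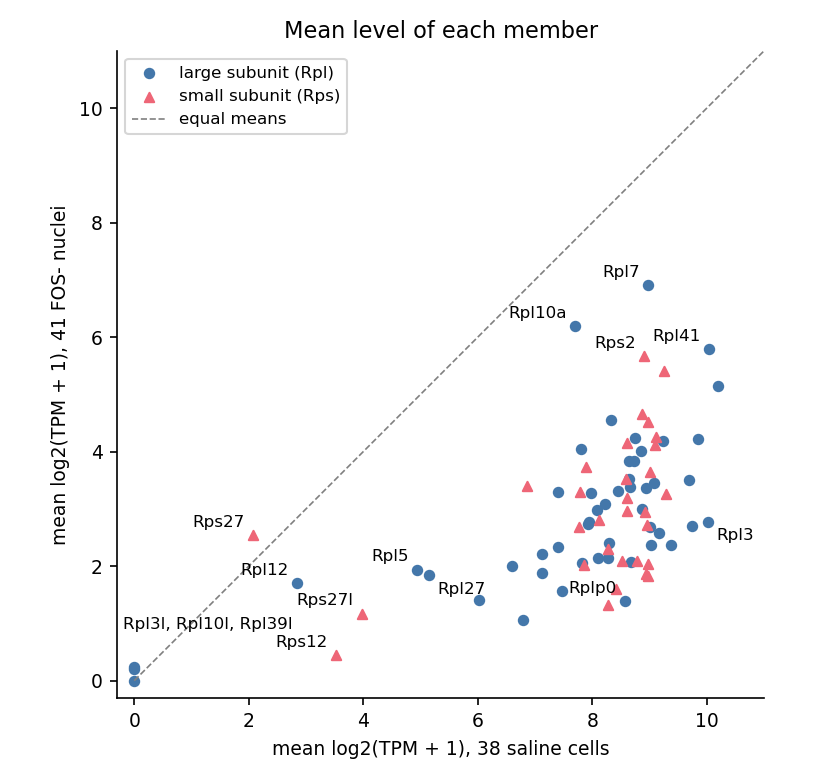
Mean log2(TPM + 1) of each of the 81 members in 38 saline cells (x axis) and 41 FOS- nuclei (y axis), circles for the large and triangles for the small subunit, with the line of equal means dashed. All but Rps27, Rpl3l, Rpl10l and Rpl39l lie below the line, and Rpl7 and Rpl10a are the highest in nuclei.

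Several members with low values in saline cells had near-identical copies. Rps27 had a mean log2(TPM + 1) of 2.07 ± 2.79 in saline cells and 2.55 ± 3.61 in FOS- nuclei, the 1 member of the 78 tested that was not higher in cells. Rps27rt, with the same coding sequence, was detected in all 38 saline cells (168 to 1688 TPM) and in 35 of 41 FOS- nuclei, and the summed TPM of both had means of 9.52 and 7.38. Rps27 itself had 78 counts over all saline cells and Rps27rt had 4960. Summing the copies raised the mean log2(TPM + 1) of Rpl12 in saline cells from 2.84 to 7.97, of Rps12 from 3.52 to 8.09, of Rpl5 from 4.94 to 8.47 and of Rpl27 from 5.15 to 8.81. With 1 copy alone added, Rpl12 and Gm10275 came to 7.95, Rpl5 and Gm15500 to 8.47, Rpl27 and Rpl27-ps3 to 8.54, and Rps12 and Rps12-ps3 to 7.49. The coding sequences of Rpl12 and Rpl5 were identical in Gm10275 (498 bases) and Gm15500 (894 bases). With copies summed, all 78 members were higher in saline cells, with a median difference of 5.15. Rpl5 and Rpl11, which together bind 5S ribosomal RNA and can bind MDM2, had means of 8.47 and 8.59 in saline cells with copies summed, and of 4.94 and 8.33 without.

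The paralogues known from muscle and testis were nearly absent. Rpl3l, of striated muscle, was listed at 0 in all 172 libraries kept. Rpl10l and Rpl39l, known from testis, were at 0 in every whole cell and HC nucleus. Rpl10l was seen in 2 of 41 FOS- and 2 of 40 FOS+ nuclei, with 3 and 2 counts in all, and Rpl39l in 2 and 3, with 2 and 6 counts. Their sequences differ from their partners: over the coding bases, Rpl3 and Rpl3l were 74.8% identical, Rpl10 and Rpl10l 84.8%, and Rpl39 and Rpl39l 85.3%. Zero counts in 38 cells allow a share of detecting cells of up to 9.25% (exact Clopper-Pearson interval). Among the other members, Rpl14, Rpl39, Rps7 and Rps12 were at 0 in all HC nuclei, the group with the lowest median total count (165926). With copies summed, Rps12 was detected in 2 HC nuclei and Rps7 in 1.

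Other paralogues were expressed alongside their partner. Rpl36a and Rpl36al, 87.9% identical, had medians of 256 and 216 TPM in saline cells. Rps27l, 76.1% identical to Rps27 and known as a p53 target, was detected in 23 of 38 saline cells with a median of 50.03 TPM. Rpl22l1, outside the name rule, was detected in all 38 saline cells with a median of 439 TPM, above the 120 TPM of Rpl22, and had 72.4% identity to it. The excluded pseudogene Rps4l was detected in 16 of 38 saline cells and 1 of 41 FOS- nuclei.

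Other genes of translation gave a scale for the gap between saline cells and FOS- nuclei, where 28.7% of all genes were higher and 21.2% lower. Of 8 tested ribosomal protein genes outside the name rule, among them Rps3a1, Fau and Gnb2l1 (RACK1), 7 were higher past the fold, with a median difference of 4.40. Among 25 translation factors and other TOP mRNAs, such as Eef1a1 and Tpt1, 24 were higher (median 3.99). Of 30 ribosome biogenesis genes 19 were higher and 2 lower (median 1.17), and of 13 genes of growth signalling to the ribosome 5 were higher (median 0.67). The nuclear-encoded OXPHOS subunits, which like the members are short, abundant mRNAs, were all higher (69 of 69, median 4.81), and the mitochondrial ribosome was less so (60 of 76, median 2.20). Of 9 RNAs retained in the nucleus, such as Malat1 and Meg3, 6 were lower in cells (median -1.61). Among the 66 tested named ribosomal protein pseudogenes 12 were higher and 4 lower (median -0.07).

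Compared with HC nuclei, FOS- nuclei had higher values of many genes, members among them, and the libraries were made by different methods. The median difference of mean log2(TPM + 1), FOS- minus HC, was 1.47 over the 77 members that passed the filter and 0.83 over 14465 genes. Of the members 51 were higher past the fold (66.2%) and none lower, against 42.6% and 3.01% of all genes. HC nuclei detected 3237 ± 371 genes per library against 6281 ± 1539 in FOS- nuclei, and the amplification method, the exposure and the read length cannot be told apart.

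Between FOS+ and FOS- nuclei of the same isolation, the family did not move as a whole, while single members differed in both directions. The study left out 9 FOS+ nuclei whose expression clustered with FOS- nuclei, whereas all 40 kept FOS+ nuclei were compared here. The effect of this choice was not tested. Of 79 members that passed the filter, 17 were past the fold, 9 higher and 8 lower in FOS+ nuclei (21.5%), against 13.8% of 16411 genes in either direction, 5.83% higher and 7.99% lower. The median difference was 0.15 over the members and -0.09 over all genes. Centred on the median of all genes, 12 were higher and 5 lower, and on summed CPM 7 were higher and 14 lower, with a median of -0.13. On summed CPM 39.01% of all genes were past the fold against 26.6% of the members, so the order of the shares was the reverse. With every nucleus thinned to 50000 counts, 7 were higher and none lower, or 8.86% of the members against 15.2% of all genes. No member's difference was larger than its pooled SD over nuclei (0.94 to 4.55, median 3.76).

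The higher members belonged mainly to the large subunit, with 8 of 48 of its tested genes higher and 4 lower, against 1 higher and 4 lower of 31 in the small subunit. Rpl3 was detected in 27 of 40 FOS+ nuclei (median 97.4 TPM, highest 2333) and 17 of 41 FOS- nuclei (median 0, highest 1529), a difference of 2.41. Rpl41 was detected in 33 of 40 and 26 of 41, with medians of 721 and 357 TPM and a difference of 1.96. The ranges of both genes overlapped between the groups, and more FOS+ nuclei had a signal.

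Rpl36a differed by 1.92 (31 of 40 and 19 of 41 nuclei detected), Rpl10, which joins the subunit late and lies near the tRNA sites, by 1.72 (20 and 13), and Rpl4 by 1.62 (23 and 16). With its copies summed, Rpl10 differed by 0.62. Rpsa was the small-subunit gene that was higher, by 1.13, with 15 of 40 and 10 of 41 nuclei detected. The stalk was split, with Rplp2 just under the fold at 1.00, Rplp0 at 0.62 and Rplp1 at -0.21.

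The lower members were Rps21 (-1.38), Rpl37a (-1.20), Rpl10a (-1.19), Rpl34 (-1.19), Rpl11 (-1.18), Rps18 (-1.09), Rps27l (-1.05) and Rps27 (-1.02). Rps21, a small protein of the small subunit, was detected in 13 of 40 FOS+ nuclei (highest 762 TPM) and 20 of 41 FOS- nuclei (highest 2751 TPM), with a median of 0 in both. Rpl37a, a zinc-finger protein, gave 13 and 20 as well. With Rps27rt summed, the difference of Rps27 was 0.23. Rps6 (0.46), Rps27a (-0.04), Rps3 (-0.50), Rps4x (0.46), Rpl5 (0.98) and Rpl22 (0.20) were not past the fold. With copies summed, Rpl5 turned to -0.60.

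Few of these differences kept their sign in every amplification condition. Of the 17, 4 were higher in all 4 conditions, Rpl41, Rpl4, Rpl15 and Rpl13a, and 2 were lower in all 4, Rps21 and Rpl37a. That is 6 of 79 members, where 7.84% of all genes were past the fold with 1 sign in all conditions (3.47% higher and 4.37% lower). The share of the members was thus close to that of all genes. For Rps21 the 4 values were -1.07, -1.79, -1.47 and -1.30, the closest together of the named genes. For Rpl41 they were 3.77, 1.38, 0.23 and 2.34, and for Rpl10a -3.30, 0.50, -3.11 and 0.88.

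**Figure D3:**
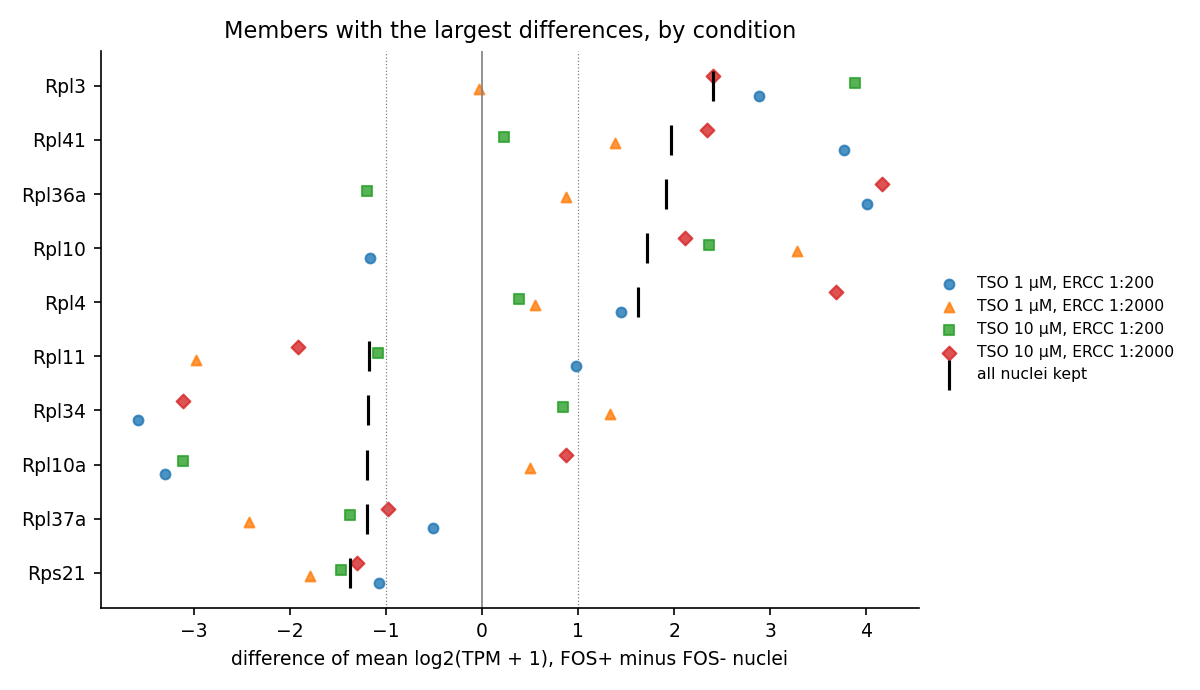
Difference of mean log2(TPM + 1), FOS+ minus FOS- nuclei, for the 5 members with the largest positive and the 5 with the largest negative values; symbols mark the 4 amplification conditions and the bar all kept nuclei, with dotted lines at -1 and 1. Rpl41, Rpl4, Rpl37a and Rps21 keep 1 sign in all conditions, and the others cross 0.

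The share of the whole family in FOS+ and FOS- nuclei also had no constant order across conditions. Its mean was 1.31% ± 0.516 in FOS+ and 1.19% ± 0.421 in FOS- nuclei with 1 µM TSO and ERCC at 1:200 (10 and 10 nuclei), and 1.11% ± 0.587 and 1.74% ± 0.811 with 1 µM and 1:2000 (8 and 10). With 10 µM it was 1.14% ± 0.441 and 1.02% ± 0.331 at 1:200 (11 and 10), and 1.26% ± 0.519 and 1.01% ± 0.492 at 1:2000 (11 and 11). FOS+ nuclei thus had the higher mean in 3 of the 4 conditions, by less than 1 SD in each. More members were detected with 10 µM TSO and 1:2000 (44.7 ± 10.2 in FOS+ and 42.1 ± 11.99 in FOS- nuclei) than with 1 µM and 1:200 (28.2 ± 15.01 and 20.5 ± 3.72). The number of members detected went with the number of all genes detected in a nucleus, with a Spearman correlation of 0.80 in FOS+ and 0.78 in FOS- nuclei.

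The other lists are given by their counts between FOS+ and FOS- nuclei. Of the 25 translation factors and TOP mRNAs, 6 were higher and 3 lower (36%, against 13.8% of all genes; median 0.07), and of 30 ribosome biogenesis genes 1 was higher and 1 lower (median 0.04). Of 12 genes of growth signalling 1 was higher and none lower, with 9 below 0, of 8 ribosomal protein genes outside the rule 1 was higher, which was Rpl22l1 (1.36), and of 66 named pseudogenes 4 were higher and 2 lower. For the mitochondrial ribosome 2 of 71 were higher and 5 lower, with 52 below 0 (median -0.29), for OXPHOS subunits 8 of 68 and 9 (median -0.31), and for RNAs retained in the nucleus 3 of 9 and 1.

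Between PTZ and saline cells, ribosomal protein genes differed little. Of 78 members 5 were past the fold, all lower in PTZ cells (6.41%), against 11.9% of 14492 genes in either direction, 3.88% higher and 8.04% lower. The median difference was -0.24 over the members, with 57 below 0, and -0.05 over all genes. The sign of this shift depended on the cells and the scale: it was 0.28 with the 23 PTZ cells whose total count was at least that of the lowest saline cell (401331), 0.15 as the ratio of mean TPM and 0.32 on summed CPM. Each treatment was 1 pool of mice, and the library titles of each carry a suffix of their own, which holds the letters frz in all saline and no PTZ libraries, so pool, suffix and treatment cannot be told apart.

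The 5 lower members were Rpl29 (-1.67), Rpl30 (-1.62), Rps13 (-1.19), Rpl7a (-1.18) and Rpl36a (-1.08), and the 5 highest values were those of Rps27 (0.84), Rps12 (0.76), Rpl18 (0.58), Rpl31 (0.47) and Rpl28 (0.40). Rpl36a was detected in all 38 saline cells and in 25 of 30 PTZ cells, with medians of 256 and 280 TPM. In the 23 deeper PTZ cells it was at 0.28 instead, Rps13 at -0.45 and Rpl7a at -0.67. Rpl29 (-1.45) and Rpl30 (-1.65) were still past the fold there, and 3 members were higher, among them Rpl18 (1.02) and Rps12 (1.01). In these deeper cells 6.41% of the members were past the fold, against 13.7% of all genes. With all 30 PTZ cells and copies summed, Rps12 was at -0.55.

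**Figure D4:**
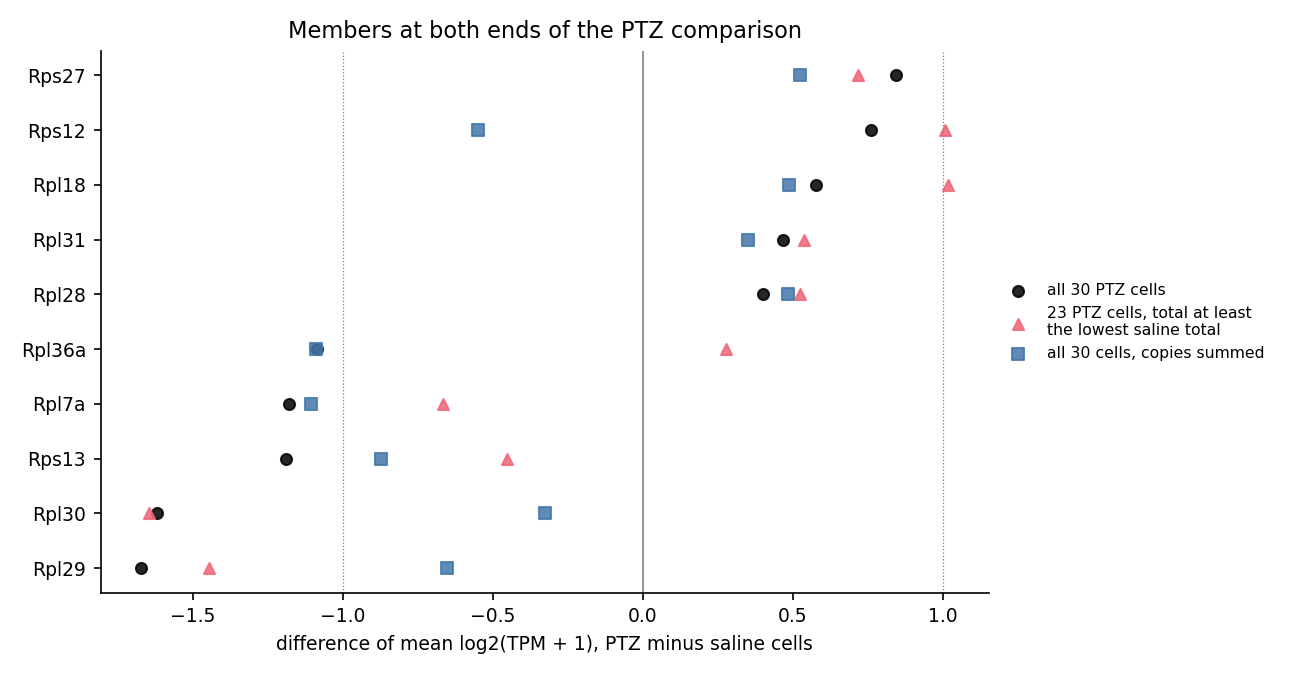
Difference of mean log2(TPM + 1), PTZ minus saline cells, for the 5 lowest and 5 highest members, with all 30 PTZ cells (circles), with the 23 PTZ cells of at least the lowest saline total (triangles), and with the TPM of near-identical copies added (squares). Rpl29 and Rpl30 are at -1.45 and -1.65 in the deeper cells and lie at -0.65 and -0.33 with copies added.

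The TPM of Rpl30 ran from 30.4 through a median of 522 to 1396 in saline cells and from 0 through 239 to 1203 in PTZ cells. The pseudogene Gm12191, 1 coding base apart, was detected in 6 of 38 saline cells (15.8%, exact Clopper-Pearson 95% interval 6.02% to 31.3%), none above 20.5 TPM, and in 23 of 30 PTZ cells (76.7%, 57.7% to 90.1%), with a median of 459 and a highest value of 1084 TPM. In counts it was 15 over all saline cells and 3225 over all PTZ cells. The intervals cover the draw of cells from 1 pool of mice per treatment, not differences between mice. The difference of Gm12191, 6.34, was the highest of all 14492 genes compared, and the gene was picked after its value was seen. Every PTZ cell with Gm12191 also had Rpl30. Added together in each cell, Rpl30 and Gm12191 had means of 8.87 ± 1.01 in saline and 8.53 ± 2.99 in PTZ cells, and with all copies the difference of Rpl30 was -0.33.

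Rpl26, a large-subunit protein near the exit tunnel, had the reverse pattern in its copy. Gm15772, 2 coding bases apart, was detected in 36 of 38 saline cells (94.7%, 82.3% to 99.4%), with a median of 245 TPM, and in 4 of 30 PTZ cells (13.3%, 3.76% to 30.7%), with a highest value of 74.7 TPM. Summed counts were 2658 and 5. The difference of Gm15772, -7.22, was the lowest of all 14492 genes compared, and this gene too was picked after its value was seen. Rpl26 itself differed by 0.07 between PTZ and saline cells and by -0.44 with copies added. In nuclei, of another strain, Gm15772 was seen in 1 of 40 FOS+ nuclei and no other, and Gm12191 in 3 of 41 FOS- and 2 of 40 FOS+ nuclei and in no HC nucleus.

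Gm13841, a copy of Rpl29 that differs from it at 3 of 483 coding bases, was detected in all 38 saline cells (median 93.7 TPM) and in 25 of 30 PTZ cells (median 209 TPM), with 884 and 2021 counts, while Rpl29 had medians of 291 and 121 TPM. Added together in each cell, Rpl29 and Gm13841 had means of 8.45 ± 0.72 in saline and 7.41 ± 2.66 in PTZ cells. With all 6 copies of Rpl29 summed, its difference was -0.65. In NE and HC nuclei Gm13841 was at 0.

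**Figure D5:**
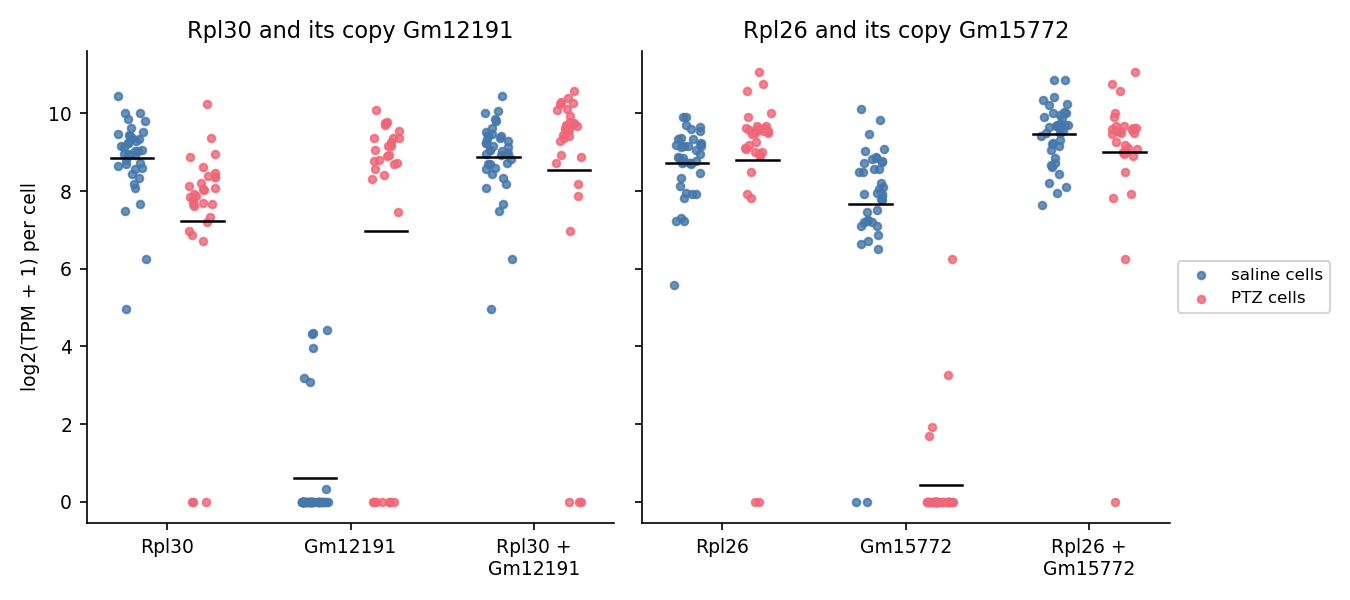
log2(TPM + 1) of Rpl30, its copy Gm12191 and their sum (left) and of Rpl26, its copy Gm15772 and their sum (right), 1 point per whole cell, saline and PTZ cells side by side, with the mean as a line. Gm12191 is at or near 0 in nearly all saline cells and high in most PTZ cells, Gm15772 is the reverse, and the sums of the groups overlap.

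The other lists differed in direction between PTZ and saline cells, where 8.04% of all genes were lower and 3.88% higher. Of 25 translation factors and TOP mRNAs 6 were lower and none higher (median -0.44), of 9 ribosomal protein genes outside the rule 2 were lower, Fau (-1.45) and Gnb2l1 (-1.09), and of 69 OXPHOS subunits 13 were lower (median -0.36). The mitochondrial ribosome had 11 of 76 lower and 2 higher (median -0.27), ribosome biogenesis 3 of 30 lower and 1 higher (median 0.08), and growth signalling 2 of 13 lower and 1 higher. Of 9 RNAs retained in the nucleus 1 was higher, and of 60 named pseudogenes 2 were higher and 1 lower (median 0.03).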

How the data were processed

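Single dentate granule cells and nuclei were sequenced by the authors, who trimmed reads with Solexa-QA++ and used RSEM with Bowtie 1.0.0 on mm10 (GRCm38) with Ensembl annotation. The deposited expected counts (estimated counts, not normalized) and the deposited TPM values are in separate tables for whole cells, NE nuclei and HC nuclei. Counts were rounded only for the filter. Of 201 libraries, those with a total count above 50000 and with genes above TPM 1 no lower than 2 SD under the mean of their table were kept, and all HC nuclei were kept. The gene limit was -5.39 in whole cells, so it could remove none of them, and 693 in NE nuclei. No deposited column was left unmapped.

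Differences of group means of log2(TPM + 1), pseudocount 1, were computed for genes counted in 5 or more of the compared libraries. Such differences shrink with a larger pseudocount: the members' median for saline cells against FOS- nuclei was 7.08 with 0.1 and 3.34 with 10. They also depend on how often a gene is seen. In that comparison the median was 5.15, against 1.60 as the log2 ratio of mean TPM. The study treated nuclei as replicates. Here the labels name no animal, and all NE nuclei came from 1 isolation and each whole-cell group from 1 pool of 2 mice, so no p-value was computed. Detection shares have exact Clopper-Pearson 95% intervals, which cover the draw of libraries within a group and not differences between mice. Named genes were the 5 highest and 5 lowest differences of each comparison, the 5 most abundant members in saline cells and in FOS- nuclei, a list by role and paralogue, and members at 0 in a whole group. Other genes named, among them the copies, the remaining members past the fold and those common in nuclei, were chosen after their values were seen. The members and lists were chosen with earlier results of these data known. Python 3.11.15, pandas 2.3.3, NumPy 2.4.6, SciPy 1.17.1 and matplotlib 3.10.9 were used, and the scripts were tested on simulated data. The simulated differences were large and in genes seen in most FOS- nuclei, so they do not cover members seen in few nuclei. Alternatives were another pseudocount, filter, fold limit, scale, set of libraries and depth. Summing copies, taking only PTZ cells as deep as saline cells and thinning for the comparisons were chosen after seeing the data.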

Additional observations from a re-analysis of the deposited data

How the results depend on the processing

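The count of members past the fold between FOS+ and FOS- nuclei was 17 (21.5%, against 13.8% of all genes). It became 28 with a pseudocount of 0.1 (35.4%, against 27.1%) and 3 with 10 (3.797%, against 3.79%). On the ratio of mean TPM it was 9 (11.4%, against 37.2%), and with all deposited libraries 11 (13.9%, against 11.6%). A limit of 0.5 gave 37 (46.8%, against 37.99%) and a limit of 2 gave 1 (1.27%, against 2.18%). With nuclei thinned to 50000 counts it was 7 (8.86%, against 15.2%). Between PTZ and saline cells, 5 became 12 with a pseudocount of 0.1 (15.4%, 27.1%) and 2 with 10 (2.56%, 1.64%). The count was 1 on the ratio of mean TPM (1.28%, 22.2%) and 0 on summed CPM (0%, 18.6%). It was 23 with a limit of 0.5 (29.5%, 37.2%), 0 with a limit of 2 (0%, 0.711%) and 3 with copies summed (3.85%, 11.9%). Between saline cells and FOS- nuclei, 77 became 51 on summed CPM, 49 higher and 2 lower (65.4%, against 62.5% of all genes in either direction). As a share of expected counts, the members held 1.46% in saline cells, 1.68% in PTZ cells, 0.494% in FOS- nuclei, 0.532% in FOS+ nuclei and 0.374% in HC nuclei. Members detected per saline cell were 70.5 when thinned and 61 with all deposited libraries. Leaving out 1 library at a time, the share of TPM ran from 3.62% to 3.78% in saline cells, 3.89% to 4.19% in PTZ cells, 1.19% to 1.26% in FOS- nuclei, 1.18% to 1.23% in FOS+ nuclei and 0.888% to 0.979% in HC nuclei. Of 1130 values of single members under an alternative, 136 turned sign, 12 of them past the fold to begin with, and 71 kept their sign but moved by at least the spread. Those 12 were as follows. FOS+ against FOS-, Rpl11 came to 0.0083 when thinned and Rps27 to 0.23 with copies. PTZ against saline, Rpl36a came to 0.090 on the ratio of mean TPM, 0.34 on summed CPM and 0.28 in the deeper PTZ cells, and Rps13 to 0.16 on summed CPM. Saline cells against FOS- nuclei, the ratio of mean TPM gave -0.89 for Rpl10a, -1.87 for Rpl12 and -0.095 for Rpl5, and summed CPM gave -0.93 for Rpl10a, -2.63 for Rpl12 and -0.43 for Rps21. For these the cause was not tested. The alternative without mitochondrially encoded genes was not run, since the tables list 0 of them. No paired analysis was possible because the labels carry no replicate numbers and no test was made. A member not seen in a nucleus is not shown to be absent from it.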
